A study of Mus musculus with 8 samples.

Results

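Tetraspanins are small proteins that cross the membrane several times and gather other membrane proteins around them. The 10 tetraspanin genes described here are Tspan32, Cd9, Cd37, Cd53, Cd63, Cd81, Cd82, Cd151, Tspan13 and Tspan14, out of 31 tetraspanin genes and 56748 gene IDs in the count tables. They were chosen by name from results already known for these libraries, in which Tspan32 had changed with Mettl3 targeting. The comparison of the groups for these genes is therefore a description. Their p-values are not printed, and whether a gene was on one side of the threshold or the other is given without support being drawn from it. All 10 genes passed the filter on low counts. RNA-seq of poly-A RNA was performed on resting bone marrow-derived mast cells (BMMCs), which were grown in vitro with IL-3 from whole bone marrow of young C57BL/6 mice, with 4 mice as the source. In the Mettl3-RNP group (n = 4) the differentiated cells had been electroporated with ribonucleoproteins of Cas9 and guide RNAs against Mettl3, the enzyme that writes N6-methyladenosine (m6A) on mRNA. In the Pulsed group (n = 4) the cells had been mock electroporated, which is taken here to mean without Cas9 and without a guide. Depletion of the Mettl3 protein had been checked by intracellular staining against a minimum below full depletion, so a Mettl3-RNP culture can hold edited and unedited cells. In such bulk RNA, a change in the share of cells that express a gene and a change in the level per cell cannot be told apart.

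Total counts were between 32643260 and 45324826 per library. Levels are given as CPM (counts per 1000000 of the scaled library size), and as RPKM (CPM per kb of exon) wherever genes are compared with each other. Mettl3 itself was at 12.3, 9.18, 4.88 and 9.21 CPM in Mettl3-RNP libraries 1 to 4 and at 25.9, 24.5, 11.2 and 26.5 CPM in Pulsed libraries 1 to 4. Each pair had less Mettl3 in the targeted cells (log2 fold change -1.30, SE 0.109, edgeR adjusted p 0.00543), and Pulsed 3 stood apart from the other controls with the lowest Mettl3 level of its group. Among the 14942 genes tested, 559 were called, which here means that the adjusted p did not exceed 0.05.

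Tetraspanins have 4 membrane-spanning segments and a small and a large extracellular loop. The large loop carries a Cys-Cys-Gly motif whose cysteines form disulphide bonds, and this loop binds the partner proteins, among them integrins, immunoglobulin-family proteins and the sheddase Adam10. In mast cells, tetraspanins are known from the plasma membrane near the high-affinity IgE receptor and from the membranes of secretory granules, where Cd63 serves as a marker of degranulation once it reaches the cell surface.

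The motif is shown for all 10 genes because it is the feature that makes them one family. An in-frame Cys-Cys-Gly was found in each of the 31 tetraspanin genes, against 2.29% of 12056 tested protein-coding genes. The capitals mark the 9 bases of the 3 codons in the canonical GENCODE transcript (5′ to 3′, coding strand), and the coordinates (GRCm39) are those of the capitals. Cd9, Cd63 and Cd81 hold 2 such motifs, of which the one nearest in position to those of the other genes is shown.
Tspan32: acgtttctgTGTTGTGGGaagaaatct (chr7:142569324-142569332, plus strand)
Cd37: cagctgcgcTGCTGCGGCtggcaatct (chr7:44885053-44885061, minus strand)
Cd53: caactgcagTGTTGTGGTgtaaatggc (chr3:106670594-106670602, minus strand)
Cd9: gcgttggacTGCTGTGGCatagctggt (chr6:125439152-125439160, minus strand)
Cd81: acgctcaacTGTTGTGGCtccaacgca (chr7:142620404-142620412, plus strand)
Cd151: gagttccacTGTTGTGGCagcaacaac (chr7:141050229-141050237, plus strand)
Cd63: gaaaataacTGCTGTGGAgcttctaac (chr10:128748036-128748044, plus strand)
Cd82: caggtcaagTGCTGTGGCtgggtcagc (chr2:93251086-93251094, minus strand)
Tspan13: aatttgaacTGCTGTGGCttccggagc (chr12:36071836-36071844, minus strand)
Tspan14: gctaatcagTGCTGCGGGgcttacggc (chr14:40635430-40635438, minus strand)

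The motif began at residue 128 of 229 in Tspan32 and at residue 128 of 204 in Tspan13, and between residues 144 and 156 in the other 8 proteins. Around it the sequences have diverged widely. In global alignments of the encoded proteins, the closest pair was Cd9 and Cd81, with 106 identical residues, 46.9% of the shorter protein. Cd37 and Cd82 followed with 37.6%. Tspan32 was distant from all of them, with 23.6% identity to Cd37 and to Cd81 at most and 15.7% to Cd63 at least.

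The 10 genes covered a wide range of levels. Per kb of exon, they held between 88.4% and 93.4% of the summed RPKM of all 31 tetraspanin genes in a library. In Pulsed cells Cd9 was the most abundant at 307.9 ± 45.6 RPKM (SD, n = 4), followed by Cd63 at 154.6 ± 9.91, Cd53 at 103.9 ± 18.0, Cd37 at 60.2 ± 2.70, Tspan13 at 43.2 ± 4.43 and Cd82 at 8.02 ± 1.35 RPKM. The ranges of neighbours in this part of the order did not overlap between libraries. Cd151 (5.23 ± 0.965 RPKM), Cd81 (3.41 ± 2.15), Tspan14 (1.98 ± 0.150) and Tspan32 (1.58 ± 0.641) came last, and each of these overlapped the next in the order. Per kb of merged exon, Tspan32 was thus the least abundant of the 10 by its mean in control cells, but not beyond the spread from Tspan14. In Mettl3-RNP cells the order from Cd9 to Cd82 was the same, with Cd63 and Cd53 now overlapping. Cd81 (8.47 ± 3.87 RPKM) and Tspan32 (7.94 ± 3.78) lay between Cd82 (8.83 ± 0.875) and Cd151 (5.83 ± 1.43), and these 4 overlapped from one to the next. Tspan32 made up 0.103% to 0.288% of the summed tetraspanin RPKM in Pulsed libraries and 0.655% to 1.56% in Mettl3-RNP libraries. The merged exons of Tspan32 span 6290 bases and its canonical transcript 1876 bases, so its ranks and shares can depend on the length used. With the longest transcript as length, its rank was again 10 in Pulsed and 8 in Mettl3-RNP cells. Ranks by canonical transcript length were not computed.

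**Figure D1:**
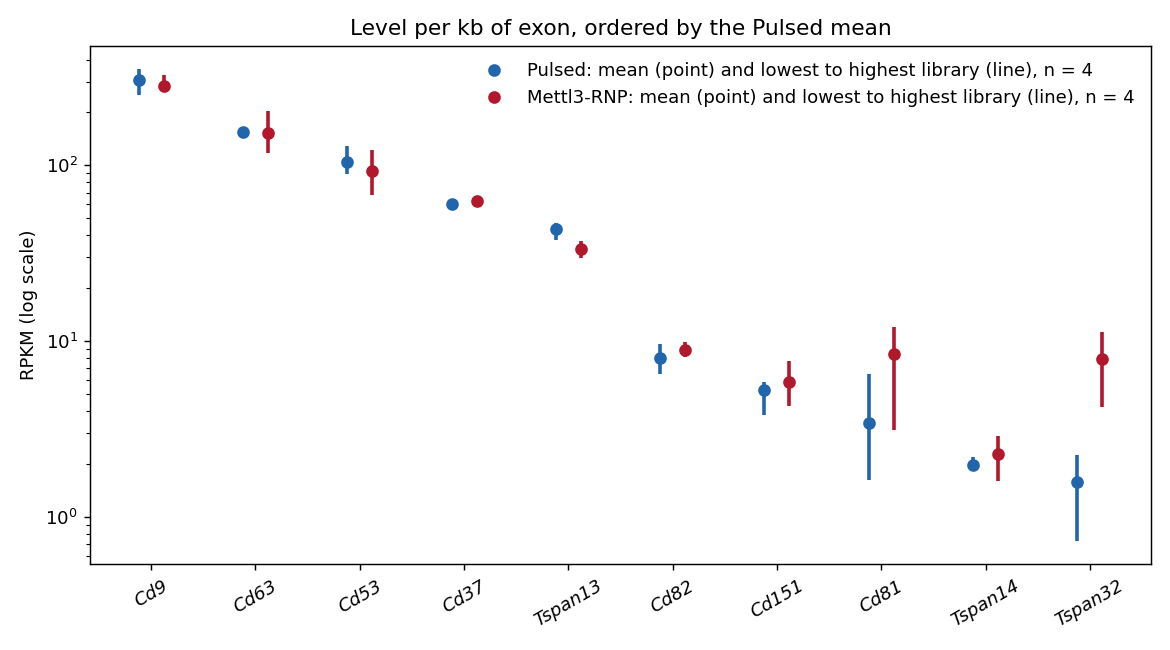
Level of each of the 10 tetraspanin genes in RPKM on a log axis, ordered by the Pulsed mean, with points for the group mean and lines from the lowest to the highest of 4 libraries (blue, Pulsed; red, Mettl3-RNP). Cd9 is highest in both groups, and Tspan32 stands at rank 10 in Pulsed and rank 8 in Mettl3-RNP cells.

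With the replicate number as a block, 3 of the 10 genes were called in the edgeR quasi-likelihood test, against 3.74% of all genes tested. Tspan32 and Cd81 were called higher in Mettl3-RNP cells (background 2.35%) and Tspan13 was called lower (background 1.39%). Tspan32 and Cd81 also had a fold change of at least 1.5 (background 2.06%). The groups did not overlap in CPM for Tspan32 and Tspan13 (background 3.23%), and the 4 pairs pointed the same way for these 3 genes (background 31.7%). The median log2 fold change of the 10 was 0.11, and that of all tested genes 0.00. Nothing is read from these counts, since the genes were chosen with this contrast known. None of the 10 was called in the fit without the replicate block, in which 0 of all 14942 genes tested were called.

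**Figure D2:**
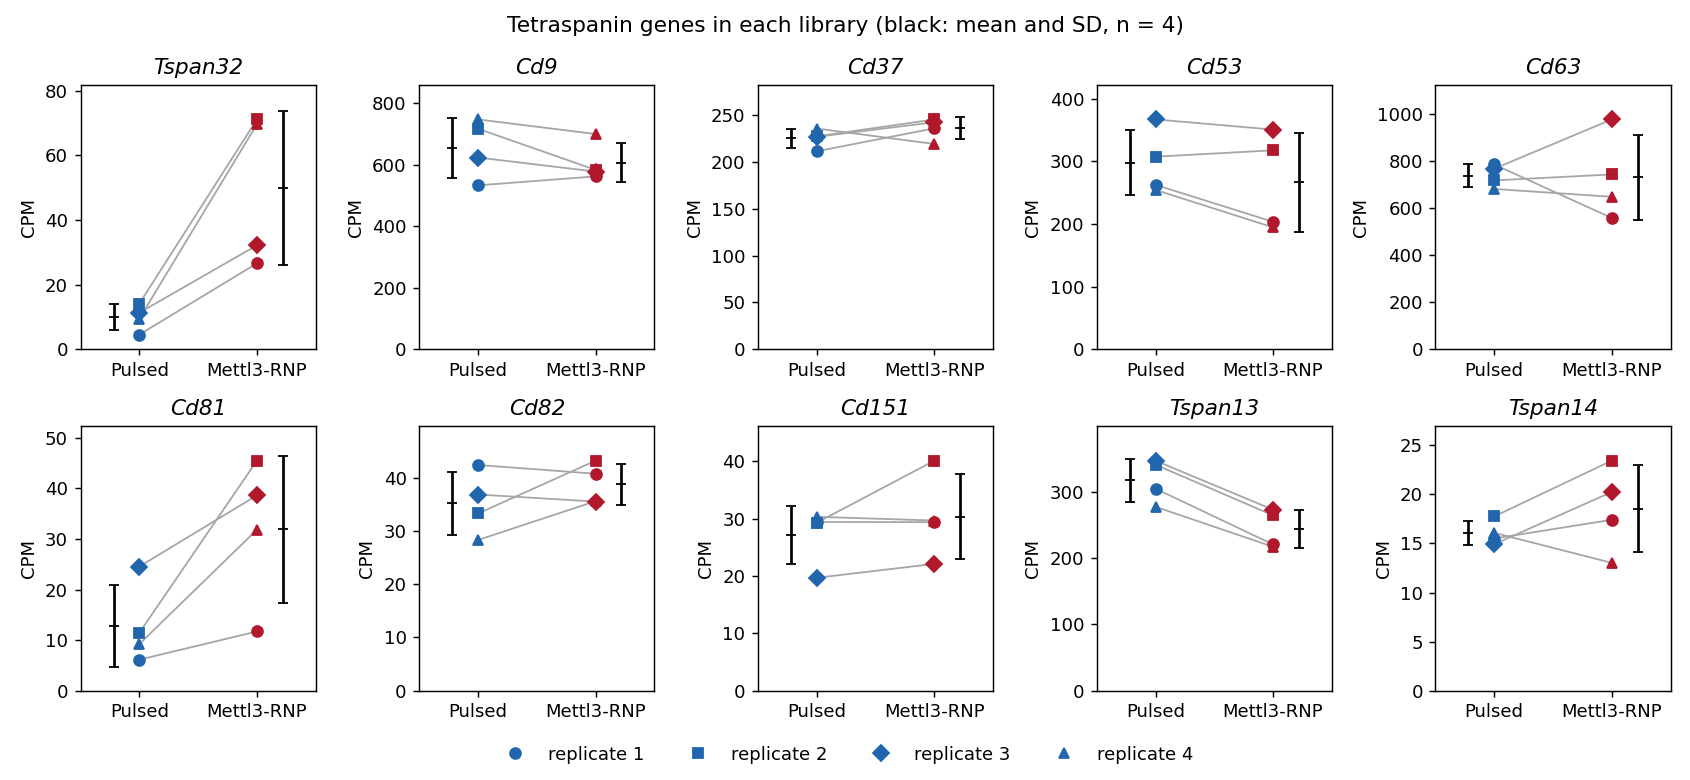
CPM of each gene in each library, with grey lines that join libraries of the same replicate number and black bars for the mean and SD (n = 4 per group), each panel starting at 0. The lines of Tspan32 and Cd81 go up and those of Tspan13 go down in all 4 pairs, while the other 7 genes show mixed slopes.

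Among the tetraspanins restricted to blood cells, Tspan32 (also known as Tssc6 or Phemx) is known to associate with the platelet integrin and to restrain T cell proliferation. It was detected at 4.59, 14.2, 11.3 and 9.53 CPM in Pulsed libraries 1 to 4 and at 26.6, 71.2, 32.2 and 69.7 CPM in Mettl3-RNP libraries 1 to 4. The lowest Mettl3-RNP library was above the highest Pulsed library. Within pairs the level was between 2.83-fold and 7.27-fold higher in Mettl3-RNP cells, and the log2 differences were 2.52, 2.32, 1.5 and 2.86 for pairs 1 to 4, with a fitted log2 fold change of 2.31 (SE 0.202). The smallest difference was in pair 3. Its log2 fold change was between 2.12 and 2.57 over the 10 alternatives. The summed level of 8 megakaryocyte and platelet markers also separated the groups, at 2176 to 2301 CPM in Pulsed and 2561 to 2675 CPM in Mettl3-RNP libraries. This sum came from Itga2b and Gp1ba, neither of which was called, while the other 6 markers were under 1 CPM in every library. The part of this sum in the result was not tested.

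The other 2 leukocyte tetraspanins did not pass the test. Cd37, which in B cells supports integrin signalling and survival, was at 211.0, 226.9, 226.4 and 235.2 CPM in Pulsed and at 235.4, 244.9, 241.9 and 218.8 CPM in Mettl3-RNP libraries. It had the smallest spread of the 10 genes, and its groups overlapped (log2 fold change 0.07, SE 0.072). Cd53, a pan-leukocyte tetraspanin, was at 262.5, 307.5, 366.9 and 254.5 CPM in Pulsed and at 203.6, 317.6, 350.7 and 194.7 CPM in Mettl3-RNP libraries. Its level followed the replicate number, which accounted for 82.3% of its variation in log2 CPM, while the group accounted for 9.08% (log2 fold change -0.19, SE 0.0919).

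Of the tetraspanins that organise adhesion receptors, Cd81 was called higher and its nearest relative Cd9 was not called. Cd81, a widely expressed tetraspanin of the plasma membrane, was at 6.13, 11.5, 24.6 and 9.23 CPM in Pulsed libraries 1 to 4 and at 11.7, 45.5, 38.6 and 31.8 CPM in Mettl3-RNP libraries 1 to 4. Mettl3-RNP 1 lay below Pulsed 3, so the groups overlapped, but each Mettl3-RNP library was above its own Pulsed partner. The log2 differences were 0.93, 1.98, 0.65 and 1.78 in pairs 1 to 4 (fitted 1.34, SE 0.222). Replicate number held 47.4% of the variation of Cd81 and group 44.7%. Without replicate 2, the pair with the largest difference, the log2 fold change of Cd81 was 1.11 and the call was lost.

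Cd9, which partners with integrins and the immunoglobulin-family protein Igsf8, was at 532.6, 716.2, 622.8 and 746.5 CPM in Pulsed and at 561.5, 582.6, 577.2 and 699.1 CPM in Mettl3-RNP libraries. The pairs disagreed in direction, with 1 higher and 3 lower (log2 fold change -0.11, SE 0.0789). Cd151, the tetraspanin bound most tightly to laminin-binding integrins, was at 29.4, 29.3, 19.7 and 30.3 CPM in Pulsed and at 29.4, 40.1, 22.1 and 29.7 CPM in Mettl3-RNP libraries. Only pair 2 differed by more than 0.2 on the log2 scale, at 0.45, and 82.7% of the variation lay between replicate numbers (log2 fold change 0.15, SE 0.0994). Cd151 overlaps Polr2l on the opposite strand, which was at 7.57 to 18.2 CPM, and whether the counting used strand is not given in the sources used here.

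The endosomal tetraspanins did not pass the test. Cd63, a resident of late endosomes and mast cell granules, was at 787.2, 719.4, 769.2 and 683.0 CPM in Pulsed and at 559.4, 744.7, 978.9 and 649.6 CPM in Mettl3-RNP libraries. The Mettl3-RNP libraries spread to both sides of the controls, with an SD of 180.5 CPM against 47.4 CPM in Pulsed libraries, and the pair differences ran from -0.49 in pair 1 to 0.35 in pair 3 (log2 fold change -0.04, SE 0.125). Cd82, known as a suppressor of metastasis, was at 42.4, 33.3, 36.8 and 28.3 CPM in Pulsed and at 40.7, 43.2, 35.5 and 35.6 CPM in Mettl3-RNP libraries. It was higher in 2 pairs and lower in 2 (log2 fold change 0.15, SE 0.0992).

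Tspan13, a less studied tetraspanin, was called lower. Its level was 304.6, 340.7, 346.8 and 277.3 CPM in Pulsed libraries 1 to 4 and 220.5, 264.4, 272.9 and 217.0 CPM in Mettl3-RNP libraries 1 to 4. The highest Mettl3-RNP library was below the lowest Pulsed library. The 4 log2 differences were the most even of the 10 genes, at -0.47, -0.37, -0.35 and -0.35, with a fitted log2 fold change of -0.38 (SE 0.065), and only 1.04% of its variation was left beside group and replicate number. The call was lost without replicate 1, 2 or 4, where the log2 fold change was between -0.40 and -0.38, and when every gene with at least 1 count was tested. Tspan14, one of the tetraspanins that carry Adam10 to the cell surface, was at 15.5, 17.8, 14.9 and 16.1 CPM in Pulsed and at 17.4, 23.4, 20.2 and 13.02 CPM in Mettl3-RNP libraries. It was higher in 3 pairs and lower in pair 4 (log2 fold change 0.18, SE 0.134).

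**Figure D3:**
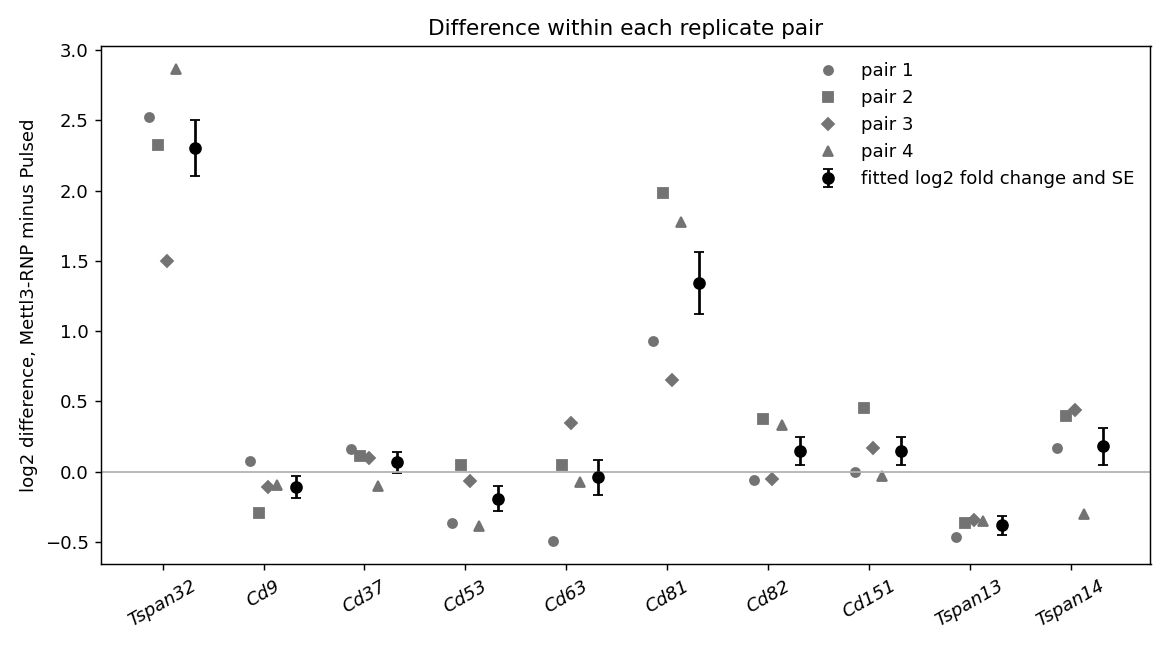
Log2 difference of Mettl3-RNP minus Pulsed within each of the 4 replicate pairs (grey symbols), with the fitted log2 fold change and its SE in black. Tspan32 lies between 1.5 and 2.86 and Cd81 between 0.65 and 1.98, Tspan13 forms a tight group near -0.38, and the other 7 genes scatter around 0.

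The rest of the family was examined as a list that did not include these 10. Of 23 further names, 21 were in the tables and 11 passed the filter. None was called in the edgeR test (background 3.74%), and DESeq2 also called 0, against 1449 of all 14942 genes. An unadjusted p under 0.05 in the edgeR test was found for 5 of the 11, against 22.5% of all tested genes. Their median log2 fold change was -0.12. The 3 most abundant per kb were Tspan31, Tspan4 and Tspan8. Tspan31 was at 36.3 ± 8.71 RPKM in Pulsed and 30.8 ± 6.57 RPKM in Mettl3-RNP cells (SD, n = 4), lower in 4 of 4 pairs (log2 fold change -0.23, SE 0.0659, edgeR adjusted p 0.0927). Tspan4, the neighbour of Cd151 on chromosome 7, was at 7.72 ± 1.14 and 10.04 ± 1.31 RPKM (SD, n = 4), higher in 3 of 4 pairs (log2 fold change 0.38, SE 0.132, edgeR adjusted p 0.139). Tspan8 was at 8.51 ± 2.93 and 6.57 ± 2.63 RPKM (SD, n = 4), lower in 4 of 4 pairs (log2 fold change -0.40, SE 0.128, edgeR adjusted p 0.12). Tspan1 and Tspan11 had no count in any library, which by counting error alone allows up to 0.1003 CPM in the shallowest library (3 counts).

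Of the 17 partner genes, which encode proteins that tetraspanins bind, carry or need, 14 were tested. None was called in the edgeR test (background 3.74%), and DESeq2 also called 0, against 1449 of all 14942 genes. An unadjusted p under 0.05 in the edgeR test was found for 3 of the 14, a share close to the 22.5% of all tested genes. Adam10 was at 191.7 ± 21.8 CPM in Pulsed and 194.1 ± 10.5 CPM in Mettl3-RNP cells (SD, n = 4; log2 fold change 0.02, SE 0.0741, edgeR adjusted p 0.886). The SCF receptor Kit was at 4055 ± 902.5 and 4242 ± 567.4 CPM (SD, n = 4; 0.08, SE 0.0853, edgeR adjusted p 0.626). Fcer1a, the IgE-binding chain of the high-affinity receptor, was at 2602 ± 163.8 and 2892 ± 395.9 CPM (SD, n = 4; 0.14, SE 0.099, edgeR adjusted p 0.447).

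Tspan32 and Cd81 are neighbours. On chromosome 7 (GRCm39) Tspan32 lies from 142558783 to 142573381 and Cd81 from 142606314 to 142621672, both on the plus strand, 32.9 kb apart, in a region known for imprinted genes such as H19, Igf2 and Kcnq1ot1. Of 43 annotated genes within 500 kb of Tspan32, 9 were tested and 3 were called, all higher (background 2.35%), namely Cd81, Tssc4 and H19. Cd81 is one of the 10 genes chosen with this contrast known, and the window itself was set around Tspan32 with its change known. Tssc4, which takes part in the assembly of the spliceosome, begins just after Cd81. It was at 11.7, 15.2, 10.5 and 13.6 CPM in Pulsed and at 18.95, 29.1, 29.1 and 34.3 CPM in Mettl3-RNP libraries, with no overlap of the groups (log2 fold change 1.11, SE 0.137, edgeR adjusted p 0.0139). The imprinted non-coding RNA H19, 425 kb from Tspan32, was at 4.67, 4.26, 8.33 and 16.5 CPM in Pulsed and at 9.29, 10.9, 22.4 and 39.7 CPM in Mettl3-RNP libraries. The groups overlapped, but each pair was higher by 0.98 to 1.42 on the log2 scale (log2 fold change 1.27, SE 0.107, edgeR adjusted p 0.00543). Without replicate 2, H19 kept its call (edgeR adjusted p 0.038) and Tssc4 lost it (log2 fold change 1.16, edgeR adjusted p 0.0618).

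The other tested genes nearby did not pass. Kcnq1ot1, 158 kb away, was at 48.8, 56.3, 21.7 and 46.1 CPM in Pulsed and at 67.8, 50.5, 26.1 and 87.3 CPM in Mettl3-RNP libraries, higher in 3 of 4 pairs (log2 fold change 0.38, SE 0.155, edgeR adjusted p 0.203). R74862, a non-coding gene on the opposite strand that overlaps Cd81 and Tssc4, was at 0.0548 to 1.57 CPM (log2 fold change 1.60, SE 0.75, edgeR adjusted p 0.257). Igf2 was at 0.0274 to 0.834 CPM (0.89, SE 0.619, edgeR adjusted p 0.451), and Mrpl23 was lower in 3 of 4 pairs (-0.18, SE 0.0924, edgeR adjusted p 0.285). The antisense gene Tspan32os was at no more than 0.187 CPM in any library, so the counts of Tspan32 exceeded those of its antisense partner in every library.

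**Figure D4:**
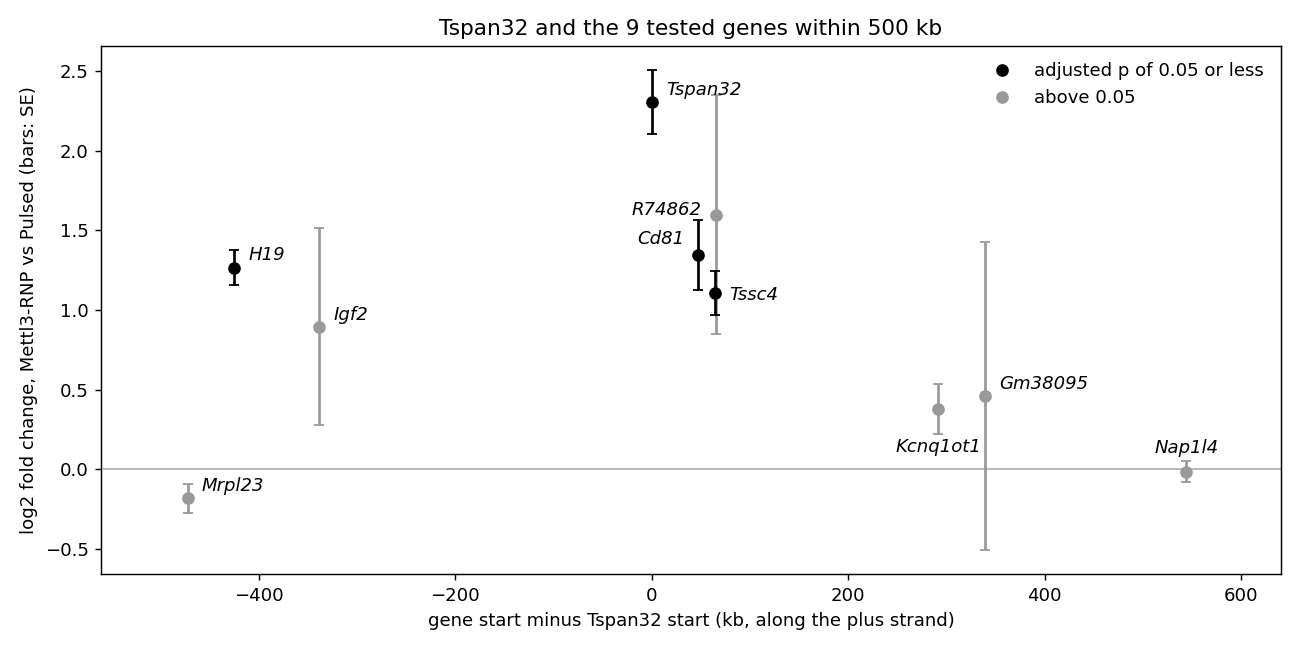
Log2 fold change and SE of Tspan32 and the 9 tested genes within 500 kb, against the distance of each gene's start from that of Tspan32 in kb (black, adjusted p of 0.05 or less; grey, above). Tspan32, Cd81, Tssc4 and H19 lie above 1, as does the low-count R74862 with a wide SE, while Mrpl23 and Nap1l4 at the edges lie near 0.

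The m6A writer prefers the core motif GGACT, so the canonical transcripts of the 10 genes were searched for these letters on the sense strand. At least 1 GGACT was present in 93.8% of 12056 tested protein-coding transcripts, with a median of 1.04 per kb. Tspan32 held 4 in 1876 bases, or 2.13 per kb, at percentile 92.5 of these transcripts. By the broader m6A consensus DRACH (A, G or T, then A or G, then AC, then A, C or T) it did not stand out, with 36 matches or 19.2 per kb, at percentile 40.0, against a median of 19.9 per kb. The GGACT sites, which are among these matches, are printed here as its narrower form. The motif is in capitals. The coordinates are those of the motif, which in the coding site is split by an intron.
Tspan32 coding sequence: atgagagaGGACTgcctccag (chr7:142569404-142570941, plus strand)
Tspan32 3′ UTR, position 1561: actgttagGGACTtgggagat (chr7:142573066-142573070, plus strand)
Tspan32 3′ UTR, position 1577: gagatgctGGACTgtgacaag (chr7:142573082-142573086, plus strand)
Tspan32 3′ UTR, position 1603: tgaagccaGGACTccatgatc (chr7:142573108-142573112, plus strand)

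The densities of the other genes can be set beside their changes. Cd82 had the highest density, 2.74 per kb, and a log2 fold change of 0.15, and Cd37 had 2.09 per kb and 0.07. Cd81 held no GGACT in its 1544 bases and had a log2 fold change of 1.34. It did hold the broader consensus DRACH, with 23 matches or 14.9 per kb. Tspan13, called lower, held 2 GGACT in 5353 bases, or 0.374 per kb. Cd53, Cd63, Tspan14, Cd151 and Cd9, none of them called, had 0.698, 0.724, 0.791, 1.01 and 1.57 GGACT per kb. All 10 genes held DRACH matches, from 11.9 per kb in Cd37 to 23.4 per kb in Cd53. Whether the density of either motif goes with the changes was not tested. Such a match is a description of the letters, and methylation was not measured in these libraries.

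The genes whose log2 CPM followed that of Tspan32 most closely over the 8 libraries, out of 11984 genes that averaged 1 CPM or more, were Prdm11 (Pearson r 0.990, Spearman rho 0.976), Nuak1 (0.970 and 0.952), Tnk2 (0.966 and 1.000), Stab1 (0.961 and 0.929) and Tcn2 (0.960 and 0.976). Tssc4 stood at rank 16 (r 0.919) and Cd81 at rank 106 (r 0.828), while Cd9 had an r of 0.05. The 2 groups form separate clusters on Tspan32, and libraries of one number may share a mouse, so these values describe the likeness of the patterns and were not tested.

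The libraries carried the profile of mast cells. The 10 mast cell markers summed to between 46052 and 64394 CPM in Pulsed and between 40793 and 57648 CPM in Mettl3-RNP libraries, and 1 of them, Cpa3, was called lower. Tspan32 and Cd81 are also known from platelets, B cells and T cells. Of the 8 megakaryocyte and platelet markers, 6 were under 1 CPM in every library, among them Pf4 and Ppbp, and the summed level came from Itga2b (1597 to 2120 CPM) and Gp1ba (389.3 to 843.0 CPM). Itga2b encodes a chain of the platelet integrin that Tspan32 associates with. It was higher in 4 of 4 Mettl3-RNP libraries than in their Pulsed partners but was not called (log2 fold change 0.17, SE 0.0654, edgeR adjusted p 0.163). Gp1ba was also higher in 4 of 4 pairs and not called (0.33, SE 0.095, edgeR adjusted p 0.0912). The 6 B cell markers summed to at most 1.57 CPM in a library, with Ms4a1 at 0, and the 6 T cell markers to at most 2.95 CPM, with Cd3d at 0. The 7 macrophage markers summed to at most 4.50 CPM, with Adgre1 called lower, the 6 dendritic cell markers to at most 3.60 CPM, and the 7 neutrophil markers to at most 0.398 CPM. The 7 erythroid markers summed to 5.59 to 10.8 CPM. The 4 basophil markers summed to between 539.3 and 857.0 CPM, mostly from Cd200r3, and Il18rap was called lower.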

How the data were processed

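The authors enriched poly-A RNA, sequenced paired-end Tecan Revelo libraries, mapped the reads with HISAT2 2.2.1 to GRCm39 and counted them with featureCounts 2.0.1, after quality control with FastQC 0.11.9. The deposited files hold raw whole-number counts, 1 value per Ensembl gene. The batch correction that the methods describe is not visible in them, and strand and multimapping settings are not given in the sources used here.

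Gene names, positions and transcripts came from GENCODE mouse release 39, which named 56017 of 56748 IDs (98.7%). Unnamed IDs took up to 0.113% of the counts in a library. Genes were filtered with filterByExpr (14942 kept) and scaled by TMM. The quasi-likelihood test of edgeR 4.0.16 (R 4.3.3), blocked on replicate number, gave p-values for the group difference, with Benjamini-Hochberg adjustment over all tested genes. DESeq2 1.42.0 was an alternative, together with other scalings and filters, the fit without the block and each pair left out. The fit was also run on counts simulated with the same spread beyond counting error for every gene. That run does not measure how reliable the calls in these data are. Log2 CPM used a prior count of 2. RPKM is CPM per kb of merged exons. Proteins were aligned globally with BLOSUM62.

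The series names 4 mice and each group is numbered 1 to 4, from which it was inferred that equal numbers mean the same mouse. After subtraction of the group mean, libraries with equal numbers correlated at 0.825, 0.489, 0.879 and 0.765 (11985 genes averaging 1 CPM or more), against at most 0.183 between different numbers. Over all 14942 tested genes pair 2 was at only 0.0738, under the 0.249 reached by libraries of different numbers. Limits from counts cover counting error only.

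The members and the gene lists were chosen with earlier results of these data known. Named were the 10 members, Mettl3, the called genes of the lists of other tetraspanins and partners, the 3 other tetraspanins highest per kb, Adam10, Kit, Fcer1a, the called genes within 500 kb of Tspan32 with the 3 nearest tested on each side, and the 5 genes most like Tspan32. Tspan1, Tspan11, Nap1l4, Polr2l, Tspan32os, Kcnq1ot1 and the marker genes were singled out with their values known. Beside the genes that this rule leaves unnamed, 1 gene of the lists is not reported here, although the counts include it.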

Additional observations from a re-analysis of the deposited data

Results flagged for a closer look

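In groups of 4 libraries, 4 of the 38 groups examined held a library set apart from the others by Dixon's criterion, where chance gives about 1 in 20 groups, or 1.9. Cd9 was at 699.1 CPM in Mettl3-RNP 4, with the others between 561.5 and 582.6 CPM. Cd151 was at 19.7 CPM in Pulsed 3, with the others between 29.3 and 30.3 CPM. Mettl3 was at 11.2 CPM in Pulsed 3, with the others between 24.5 and 26.5 CPM. Tspan4 was at 29.6 CPM in Pulsed 1, with the others between 22.3 and 22.6 CPM.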

How the results depend on the processing

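Over all tested genes, 559 were called with the replicate block. Without the replicate block 0 were called (579 at an unadjusted p under 0.05), and 0 of the 10 members and 0 neighbours of Tspan32 were called, against 3 and 3 with it. The Mettl3 log2 fold change was then -1.31 (edgeR adjusted p 0.744). DESeq2 called 1449 genes, the test of every gene with at least 1 count 993, and the filter of 10 counts in every library 959. The cause of these differences was not tested. When each pair was left out in turn, the calls ranged from 26 (without replicate 2) to 383 over all genes, from 1 to 3 among the members and from 1 to 3 among the neighbours. The rank of Tspan32 in Mettl3-RNP cells was then 7 or 8. By Spearman's rho, 3 of the 5 genes most like Tspan32 were shared. The other tetraspanins and the partner genes had 0 calls under each of the 10 alternatives. The log2 fold changes of the 10 members stayed within the SD of their paired differences under each of the 10 alternatives, but Cd37 went from -0.002 to 0.13 and Cd63 from -0.17 to 0.07.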

Other observations

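The ratio of Tspan32 to Cd81 per kb of merged exon was 0.448, 0.741, 0.276 and 0.618 in Pulsed libraries 1 to 4 and 1.36, 0.936, 0.499 and 1.31 in Mettl3-RNP libraries 1 to 4. The size of this ratio depends on the exon lengths used, but its fold change between libraries does not. It was higher in the Mettl3-RNP library of each pair, and replicate 3 had the lowest ratio in both groups. Tspan32 was chosen for its change, so this ratio was not tested.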
